A study of Macaca mulatta with 24 samples.

Results

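GPR110 (also called ADGRF1) and ANKRD65 are 2 of the 13460 genes that were named and measured above background in colon of rhesus macaques after total-body irradiation (TBI). They were chosen because their mRNA stood above the unirradiated level through day 7, so their differences from control are given here as a description and without a test. Each gene was read by 1 probe, printed as 1 spot, among 43603 probes. The GPR110 probe carries that symbol in the array annotation. The ANKRD65 probe carries only a LOC number there, with a description as an ankyrin repeat and SOCS box protein 10-like transcript, and takes the name ANKRD65 through its gene number in RefSeq.

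GPR110 is an adhesion G protein-coupled receptor: a large extracellular part cleaves itself from the membrane-spanning part, and the stub left behind can act as a tethered agonist. The receptor can signal through Gs and cyclic AMP, and an N-acylethanolamine made from docosahexaenoic acid is known to bind it in the nervous system. ANKRD65 is a little-studied protein named for its ankyrin repeats, stacked helical motifs that bind other proteins.

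The animals were young-adult males given a sham exposure or a single uniform dose of cobalt-60 gamma rays, and about 3 cm of colon was taken from each. The 24 arrays, 1 per animal and without pooling, held 4 unirradiated controls and, for each of the doses 6.7 Gy and 7.4 Gy, 4 animals taken at day 4, 4 at day 7 and 2 at day 12. All 6 irradiated groups are set against the same 4 controls, which are labelled day 4. The general treatment label gives 21 days for the last time point, whereas the label of every such sample gives 12, which is used here. The tissue was whole gut wall, so each level is an average over epithelium, stroma, muscle and blood cells, and fewer cells of a type and less RNA per cell cannot be told apart.

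Between 66.6% and 84.8% of the probes on an array were well above background, and arrays of a group correlated at 0.969 to 0.987. Array intensities were measured, not read counts, and precision also depends on the small number of animals per group and the differences between them. The epithelial marker list had 9 of its 10 genes measured, and at least 8 of the 9 were above background on every array. All 4 control arrays lay in position 1 of their slide, all day 7 arrays in positions 3 and 4 and all day 12 arrays in position 4, so that position and treatment cannot be told apart on days 7 and 12. All 4 arrays of 7.4 Gy day 4 lay in position 2, where no control lay. Only the 6.7-Gy day 4 group had arrays in position 1 beside controls. Levels are log2 intensities relative to the 75th percentile of the array, so 0 is the 75th percentile and each unit is a doubling.

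GPR110 was close to background in unirradiated colon and far above it on day 4. The 4 control arrays gave -4.50, -6.04, -6.58 and -5.49, and 2 of them were well above background. At day 4 the 6.7-Gy animals gave -0.97, -1.95, -0.69 and 0.60. The 7.4-Gy animals gave 0.81, -0.48, 0.64 and 0.68. Each of these 8 arrays stood above each control, and the highest reached past the 75th percentile of its array. The mean was -5.65 ± 0.89 (SD, n = 4) in controls, -0.75 ± 1.05 after 6.7 Gy and 0.41 ± 0.60 after 7.4 Gy, which is 29.9-fold and 67.1-fold above control. Since only 2 of 4 controls were well above background, these and the later GPR110 folds compare measured signals and depend on the background correction. With normexp and an offset of 50 the day 4 values were 7.06-fold and 14.3-fold. In scanner units the probe gave 7.82 to 24.6 in controls and 242 to 1628 on day 4.

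On day 7 GPR110 remained higher on average but differed widely between animals. The levels after 6.7 Gy were -2.26, -0.71, -1.49 and -2.76, with a mean of -1.80 ± 0.90 (SD, n = 4), 14.4-fold above control. After 7.4 Gy they were -1.13, -2.74, -4.45 and 0.05, with a mean of -2.07 ± 1.96, 12.0-fold above control. Replicate 3 of this group lay just above the highest control and replicate 4 was within the day 4 range, a 22.7-fold spread inside 1 group. Without replicate 3 the mean difference was 20.8-fold, and without replicate 4 it was 7.35-fold. On day 12 the arrays gave -5.56 and -5.45 after 6.7 Gy and -4.24 and -4.30 after 7.4 Gy. The first pair lay inside the control range and the second pair just above it, with means 1.11-fold and 2.61-fold above control.

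ANKRD65 was not well above background on any control array, and was above it on each of the 16 irradiated arrays of days 4 and 7. The controls gave -6.44, -7.06, -6.99 and -6.85. On day 4 the levels were -1.87, -1.53, -2.14 and -2.22 after 6.7 Gy, and -0.66, -0.41, -1.25 and -2.37 after 7.4 Gy. Every day 4 array was far above every control, and the 7.4-Gy group had the wider spread. Its mean was -1.94 ± 0.31 (SD, n = 4) after 6.7 Gy and -1.17 ± 0.87 after 7.4 Gy, against a measured control mean of -6.84 ± 0.28. Because the controls give only an upper limit, folds were taken against the lowest spot well above background on each control array. By this measure ANKRD65 was at least 13.0-fold and at least 22.2-fold higher on day 4. These bounds, like those for day 7, hold only for the deposited background-subtracted signals. With normexp and an offset of 50 the measured day 4 differences were smaller than the bounds, 2.84-fold and 4.04-fold.

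On day 7 ANKRD65 gave -2.23, -3.43, -1.97 and -3.10 after 6.7 Gy and -3.26, -2.30, -2.70 and -3.59 after 7.4 Gy. The doses overlapped, and no day 7 array came near the controls, unlike replicate 3 for GPR110. The means were -2.68 ± 0.69 and -2.96 ± 0.58 (SD, n = 4), at least 7.79-fold and at least 6.42-fold above control. With normexp and an offset of 50 the measured day 7 differences were 2.05-fold and 1.92-fold, also below these bounds. On day 12 the levels were -4.79 and -5.84 after 6.7 Gy, neither well above background, and -4.43 and -3.997 after 7.4 Gy, the second of them above background. The measured signals of all 4 day 12 arrays were still higher than those of all controls. No fold is given on day 12, since only 1 of these 4 arrays was well above background.

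**Figure D1:**
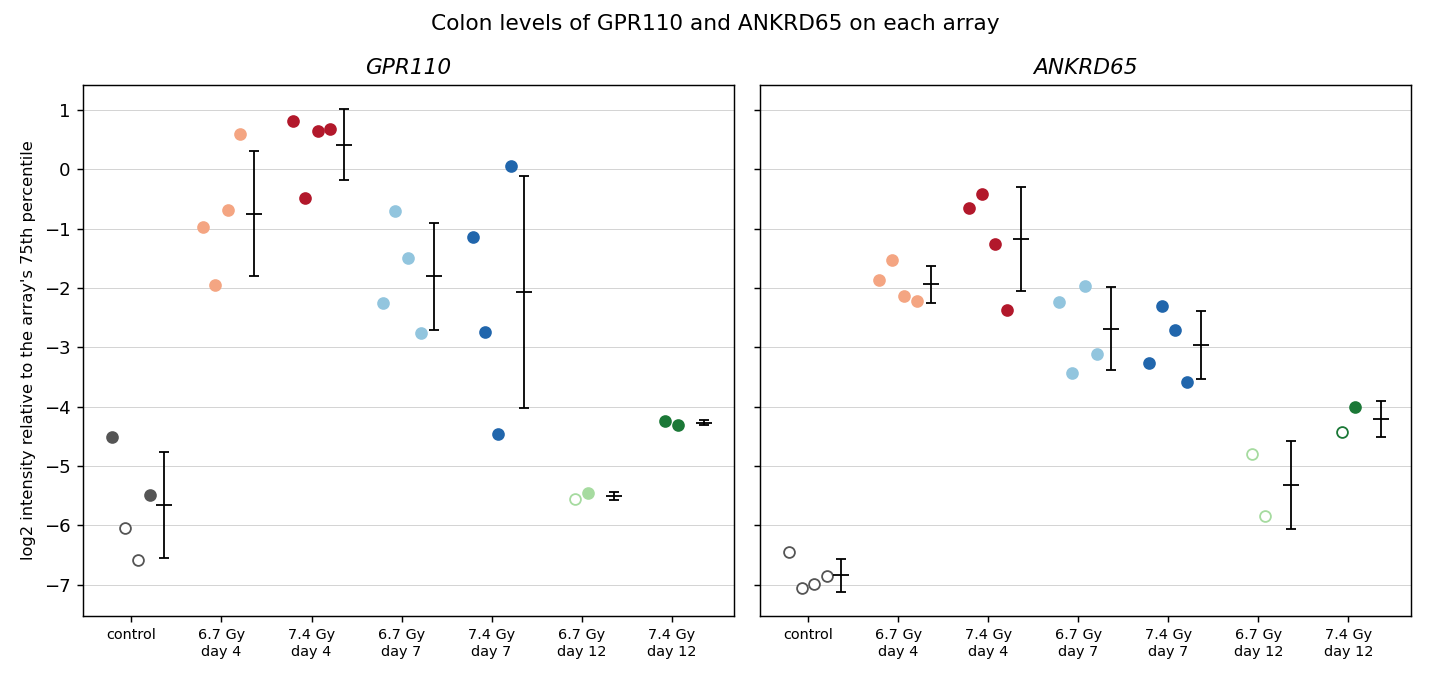
Level of GPR110 (left) and ANKRD65 (right) on each of the 24 arrays, as log2 intensity relative to the array's 75th percentile, by group. Points are arrays in replicate order, filled where the probe was well above background and open where it was not; dashes with bars are the mean and SD. Both genes were highest on day 4 after 7.4 Gy, and replicate 3 of GPR110 on day 7 after 7.4 Gy (-4.45) sat just above the highest control array (-4.50).

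For both genes, all 16 irradiated arrays of days 4 and 7 stood above all 4 controls, which holds for 0.661% of the genes tested. By single group, every array stood above every control for 8.98% (6.7 Gy) and 13.5% (7.4 Gy) of genes at day 4. The shares were 4.03% and 3.77% at day 7, and 9.33% and 8.16% at day 12. On day 12 both doses together were above all controls for 3.17% of genes, which included ANKRD65 but not GPR110. These shares are background for genes chosen on the same contrasts and are not evidence about them.

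Both genes gave the same order of group means, from 7.4 Gy day 4 through 6.7 Gy day 4, 6.7 Gy day 7, 7.4 Gy day 7, 7.4 Gy day 12 and 6.7 Gy day 12 to control. Neighbouring groups of GPR110 overlapped in their arrays at each step except between 7.4 Gy and 6.7 Gy on day 12. For ANKRD65 the first 3 steps overlapped, and the last 3, from 7.4 Gy day 7 down to control, did not. The step from 6.7 Gy day 12 to control was 0.15 for GPR110, smaller than the SD of 0.89. For ANKRD65 no array of either of these groups was well above background, so the size of that step is not given.

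Compared with the control on the same slide, each irradiated array that shared a slide with a control was higher for both genes. For days 4 and 7 this direction was given beforehand, since all arrays of these days stood above all 4 controls. It is therefore a description and not separate support. For GPR110 the difference was 3.82 to 7.40 in log2 on 4 day 4 arrays, 0.05 to 6.09 on 6 day 7 arrays and 0.04 to 1.03 on 2 day 12 arrays. For ANKRD65 the size is not given, since none of these controls was well above background, nor was either of the 2 day 12 arrays. Within position 1, the 2 arrays of 6.7 Gy day 4 exceeded the controls by 4.19 for GPR110, and for ANKRD65 both were also above all controls. With position as a block the day 4 difference of GPR110 was 18.3-fold after 6.7 Gy and 25.1-fold after 7.4 Gy. The second value is linked to controls only through the 6.7-Gy day 4 arrays, since no 7.4-Gy day 4 array shared a position with a control. Within scan days the day 7 differences from control were 3.07 to 4.10 for GPR110. Adding an offset of 50 with the normexp background correction brought the day 4 differences to 2.82 and 3.84 for GPR110 and to 1.51 and 2.01 for ANKRD65.

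The dose comparison did not enter the choice of the genes and was tested with limma over all probes. On day 4 GPR110 was 2.24-fold higher after 7.4 Gy than after 6.7 Gy (log2 difference 1.17, 95% confidence interval -0.36 to 2.69, limma adjusted p = 0.885). ANKRD65 was 1.70-fold higher (0.77, interval -0.06 to 1.59, limma adjusted p = 0.822). Neither difference passed the test, and the arrays of the doses overlapped. Within position 2 the differences were 0.46 for GPR110 and 1.007 for ANKRD65, and within scan day 2 they were 1.87 and 0.53. On day 7 the differences were -0.26 (interval -1.79 to 1.26) and -0.28 (interval -1.11 to 0.55), both with a limma adjusted p of 0.99998. Within scan days the day 7 difference of GPR110 was -0.72 and 0.19. Its sign over all arrays turned to 0.53 without replicate 3 of 7.4 Gy and to 0.10 without replicate 2 of 6.7 Gy.

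On day 12 both arrays after 7.4 Gy stood above both after 6.7 Gy, by 1.23 for GPR110 (interval -0.93 to 3.40) and 1.104 for ANKRD65 (interval -0.06 to 2.27), with a limma adjusted p of 0.99999. With 2 animals per dose both intervals include 0, and after 6.7 Gy only 1 of 2 arrays was well above background for GPR110 and 0 of 2 for ANKRD65, so these are differences of measured signals. The day 12 arrays lay on slides 3 and 4 after 6.7 Gy and on slides 5 and 6 after 7.4 Gy. Dose and slide therefore cannot be told apart on day 12. No gene passed the dose test on any day by limma or by the methods' t-test with adjustment, so 0% of genes were called. At an unadjusted limma p under 0.05 there were 1019 genes (7.57%) on day 4, 247 (1.84%) on day 7 and 421 (3.13%) on day 12.

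Both genes fell between day 4 and day 7. The difference between these days did not set their choice. The arrays of both days did enter that choice, so the test is not independent of it. Over both doses, GPR110 was 3.41-fold lower on day 7 (log2 difference -1.77 ± 0.52, SE, n = 8 and 8, limma adjusted p = 0.0167). ANKRD65 was 2.41-fold lower (-1.27 ± 0.28, limma adjusted p = 0.0028). Among all genes 5.05% were called between these days and 2.38% were called lower. The intervals were -2.85 to -0.69 and -1.85 to -0.68, and the arrays of the days overlapped for both genes. Within scan days the difference was -1.80 and -1.82 for GPR110 and -0.81 and -1.31 for ANKRD65. The ANKRD65 call was lost with the normexp offset, where the difference was -0.77, and days 4 and 7 share no array position, so position and day cannot be told apart.

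The similarity of the genes lay between groups and not between animals of a group. Over the 24 arrays the levels of GPR110 and ANKRD65 had a Pearson r of 0.830 and a Spearman rho of 0.780. Over the 16 irradiated arrays of days 4 and 7 r was 0.295. After each group's mean was subtracted it was -0.378. These values describe arrays that share group means, and no p is given for them. On day 7 after 7.4 Gy the animal with the highest GPR110, replicate 4 at 0.05, had the lowest ANKRD65 at -3.59. Replicate 3, with the lowest GPR110, was second highest for ANKRD65. Among 13459 other genes, ANKRD65 ranked 100 by correlation with GPR110, and GPR110 ranked 20 by correlation with ANKRD65.

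**Figure D2:**
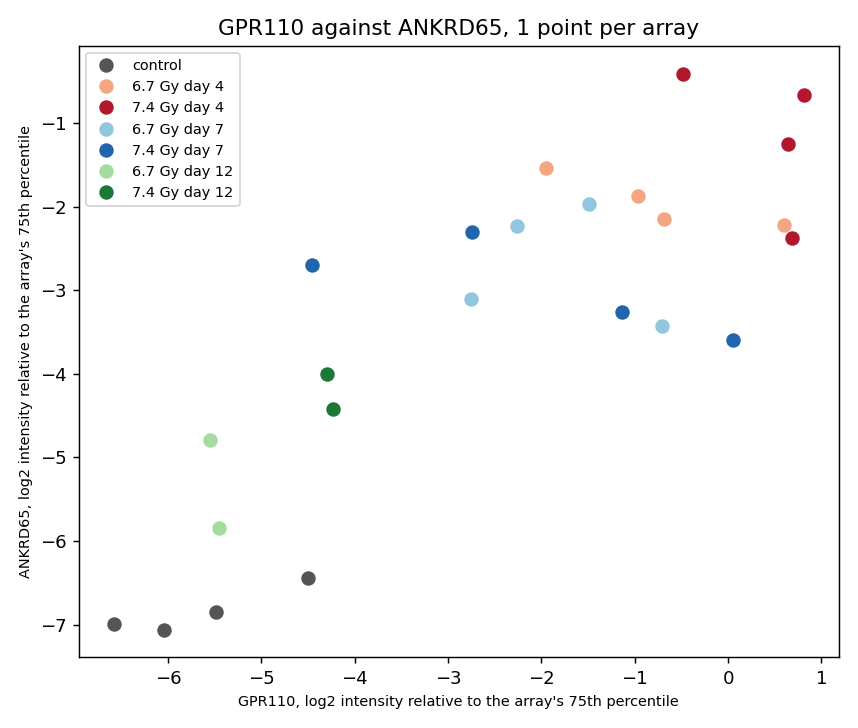
Level of ANKRD65 against GPR110, both as log2 intensity relative to the array's 75th percentile, with 1 point per array and colours for the groups. Controls lie at the lower left and day 4 at the upper right (r = 0.830 over 24 arrays), while the 4 arrays of 7.4 Gy day 7 spread from -4.45 to 0.05 in GPR110 and from -3.59 to -2.30 in ANKRD65.

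The genes whose profile followed GPR110 most closely over the 24 arrays were SCEL (r = 0.970), TNIP3 (0.934), CLDN2 (0.934), LCN15 (0.924), TXN (0.923), BIRC3 (0.922), GPX2 (0.920), PI3 (0.917), SLC5A1 (0.915) and LCN2 (0.910). SCEL encodes sciellin, a precursor of the cornified envelope of squamous epithelium. No control array measured it above background, and its mean difference from control was at least 4.54-fold (6.7 Gy) and 8.97-fold (7.4 Gy) at day 4, against at least 1.79-fold and 2.57-fold at day 7. CLDN2, a pore-forming claudin of leaky tight junctions, went from -5.60 ± 0.84 in controls to 1.12 ± 0.50 and 2.01 ± 0.72 on day 4 (SD, n = 4). Its day 12 means were -6.14 after 6.7 Gy and -5.37 after 7.4 Gy. CLDN2 was well above background on 1 of 4 controls and on 1 of 2 arrays of each dose on day 12. Those means are therefore measured signals near background.

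TNIP3 and BIRC3 are NF-kappaB pathway genes, an A20-binding inhibitor and a ubiquitin ligase that restrains apoptosis. TNIP3 stood at -4.29 ± 0.66 in controls and at -0.49 ± 0.83 and 0.14 ± 0.78 on day 4. BIRC3 was abundant throughout, at 0.88 ± 0.35 in controls and 2.21 ± 0.53 and 2.82 ± 0.43 on day 4 (SD, n = 4). LCN2, which sequesters bacterial siderophores, and PI3, the elastase inhibitor elafin, are secreted mucosal defence proteins. PI3 went from 0.23 ± 0.32 to 4.42 ± 0.35 and 3.92 ± 0.26 on day 4, and LCN2 from 3.21 ± 0.30 to 5.29 ± 0.61 and 5.02 ± 0.68. By its brightest probe, the only one given here, LCN2 was thus 4.24-fold (6.7 Gy) and 3.51-fold (7.4 Gy) above control. The paper reports a far larger rise of this gene in colon on that day. The cause of this disagreement was not tested. TXN and GPX2 encode thioredoxin and the epithelial glutathione peroxidase, and SLC5A1 the sodium-glucose cotransporter SGLT1. LCN15 is a lipocalin of the gut.

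These genes also followed GPR110 once group means were subtracted, with r of 0.562 to 0.869 between the deviations pooled over all groups. No r is given for single groups, and GPR110 spread most widely on day 7 after 7.4 Gy (SD 1.96). The clearest example was day 7 after 7.4 Gy. Replicate 3, lowest for GPR110, was the lowest of its group for all 10 genes, and replicate 4, highest for GPR110, was the highest for 9 of 10, the exception being LCN15. CLDN2 spanned 5.95 in log2 among these 4 animals and PI3 4.58. Since the 10 genes were picked by their correlation on these same arrays, the shared order describes them and is not a separate result.

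The genes nearest to ANKRD65 were EDA2R (r = 0.935), ZMAT3 (0.912), DDB2 (0.911), PSD2 (0.891), CASK (0.885), PAPPA (0.884), CYB5R2 (0.875), PHLDA3 (0.874), RPS27L (0.865) and MMP2 (0.857). None of them was among the 10 nearest to GPR110. EDA2R is a receptor of the TNF receptor family. It went from -1.58 ± 0.31 in controls to 0.76 ± 0.58 and 1.22 ± 0.11 (day 4), to 0.01 ± 0.21 and 0.17 ± 0.29 (day 7), and to -0.65 ± 0.43 and -0.47 ± 0.12 (day 12). Its day 12 means lay between control and day 7. The measured ANKRD65 means did too, but with 0 of 4 controls well above background. On day 12, 0 of 2 ANKRD65 arrays after 6.7 Gy and 1 of 2 after 7.4 Gy were well above background.

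DDB2, a recognition factor of nucleotide excision repair, went from 2.12 ± 0.04 in controls to 3.64 ± 0.24 and 4.11 ± 0.29 on day 4 and to 3.20 ± 0.35 and 3.24 ± 0.14 on day 7 (SD, n = 4). ZMAT3, an RNA-binding zinc finger protein, went from -4.84 ± 0.36 to -2.76 ± 0.20 and -2.28 ± 0.10 on day 4. PHLDA3 encodes an inhibitor of AKT, RPS27L a ribosomal protein paralogue and CASK a membrane scaffold kinase. PAPPA, a protease of insulin-like growth factor binding proteins, and the gelatinase MMP2 are secreted. PSD2, a guanine nucleotide exchange factor gene, was not well above background in controls and was at least 4.03-fold and at least 6.25-fold higher on day 4.

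In contrast to the neighbours of GPR110, those of ANKRD65 followed it weakly once group means were subtracted, with r of 0.131 to 0.384 over all groups. Both sets were picked on arrays that include these deviations. The deviations were larger for GPR110, with a group SD of up to 1.96 against 0.87 for ANKRD65. The contrast is therefore a description. On day 7 after 7.4 Gy the 10 genes spanned only 0.28 to 1.28 in log2, and replicate 3 was lowest for 3 of them. Without the 4 control arrays 8 of the 10 neighbours of GPR110 were still among its 10 nearest genes, but 1 of the 10 of ANKRD65, EDA2R.

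**Figure D3:**
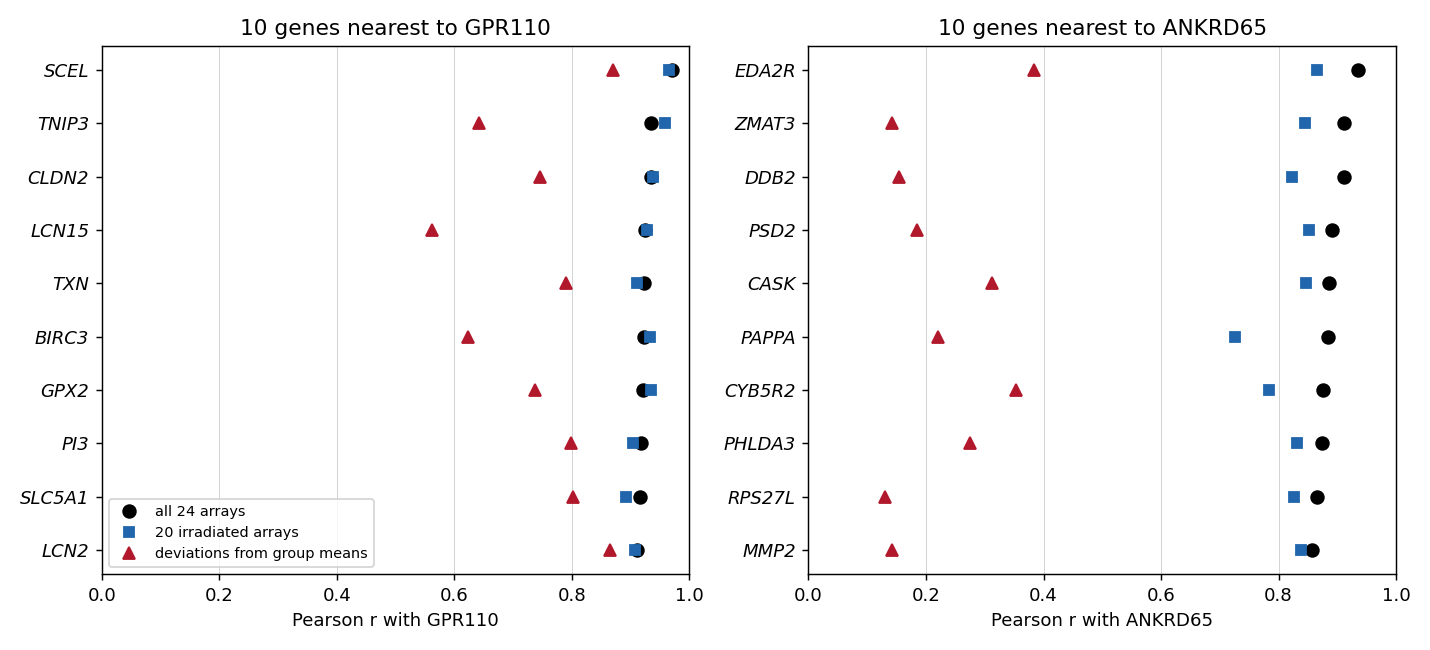
Pearson r of the 10 genes nearest to GPR110 (left) and to ANKRD65 (right), over all 24 arrays (circles), over the 20 irradiated arrays (squares) and between deviations from group means (triangles). The triangles reach 0.562 to 0.869 for the neighbours of GPR110 and 0.131 to 0.384 for those of ANKRD65.

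Markers of absorptive colonocytes, the mature surface cells of the colon, moved opposite to GPR110. Of the 11 markers measured, 7 fell on day 4 after 6.7 Gy and 9 after 7.4 Gy, against 1.98% and 3.98% of all genes called lower. CA1, a carbonic anhydrase, differed by -6.06 and -7.46 in log2, and the chloride exchanger SLC26A3 by -2.96 and -4.32. Their mean log2 level was 3.50 to 3.90 on the control arrays, 0.17 to 1.80 on day 4 after 6.7 Gy and -1.49 to 1.64 after 7.4 Gy. On day 7 it was 2.83 to 3.42 and 1.11 to 3.67, and on day 12 3.58 to 3.82 and 3.40 to 3.56. Between 8 and 11 of the 11 were above background on every array. Over the arrays this mean had r = -0.835 with GPR110 and -0.673 with ANKRD65, and within groups -0.650 and 0.216.

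The same animals of the 7.4-Gy day 7 group stood out. Replicate 3, with GPR110 just above the highest control, had a colonocyte mean of 3.67, inside the control range. Replicate 4, with GPR110 at the day 4 level, had the lowest, 1.11. The fibroblast list, with 7 of 7 genes measured, had r = 0.574 with GPR110 and 0.726 with ANKRD65, and within groups -0.388 and 0.589. Its mean was 1.01 to 1.80 in controls and 2.06 to 2.65 on day 4 after 7.4 Gy. The neutrophil list had r = 0.471 and 0.519, and the list of small intestinal enterocytes 0.195 and 0.193. The epithelial list, with 3 and 4 of 9 genes lower on day 4, had r = -0.571 with GPR110 and -0.628 with ANKRD65, and within groups 0.483 and -0.208. The red blood cell list, with 4 of 6 genes measured, had -0.569 and -0.637, and within groups -0.0934 and 0.527. The red blood cell mean was 0.042 to 1.51 in controls and -2.15 to -0.131 in all irradiated groups, without overlap. The other 9 marker lists had r between -0.500 and 0.457 with either gene, and within groups between -0.561 and 0.364. Within groups GPR110 had r = -0.561 with smooth muscle and -0.560 with enteric nerve and glia, near its -0.650 with the colonocytes. The within-group inverse relation was thus not particular to the colonocyte list. The part of these cell types in the levels of GPR110 and ANKRD65 was not tested.

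**Figure D4:**
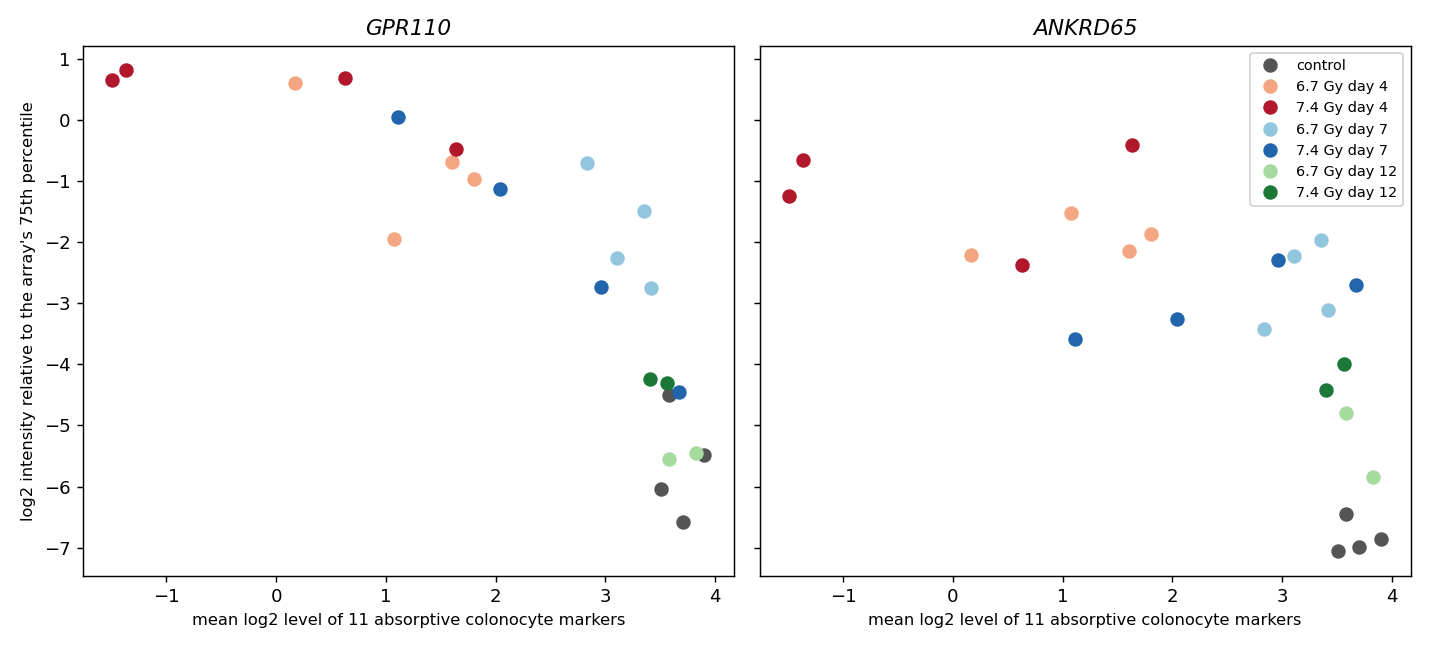
Level of GPR110 (left) and ANKRD65 (right), as log2 intensity relative to the array's 75th percentile, against the mean log2 level of 11 absorptive colonocyte markers, with 1 point per array and colours for the groups. GPR110 is high where the markers are low (r = -0.835), also inside the 7.4-Gy day 7 group, whereas within groups ANKRD65 has r = 0.216 with them.

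Among the other adhesion G protein-coupled receptors, 4 of the 17 tested were called in at least 1 of the 6 groups (23.5%, against 9.15% of all genes). All 4 rose and all on day 4, with 3 calls after 6.7 Gy and 4 after 7.4 Gy, where 4.31% and 8.24% of all genes were called and 2.33% and 4.26% were called higher. GPR128, known from intestinal epithelium, rose 5.31-fold and 4.79-fold (limma adjusted p = 0.00688 and 0.00436). Its controls gave -2.41, -2.03, -1.65 and -2.30 and its day 4 arrays -1.05 to 1.21, without overlap. ADGRL2, a latrophilin, rose 2.11-fold and 2.46-fold (limma adjusted p = 0.0104 and 0.00122), and ELTD1, an endothelial receptor, 2.37-fold after 7.4 Gy (limma adjusted p = 0.000213). The median difference of the 17 receptors was 0.0044 and 0.037 on day 4, beside -0.043 and -0.02 over all genes.

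Of the subfamily of GPR110 itself, GPR115 (ADGRF4) rose 3.20-fold on day 4 after 6.7 Gy and 4.40-fold after 7.4 Gy (limma adjusted p = 0.0124 and 0.00107). Its levels were low: 1 of 4 controls was well above background, at -5.43, and the day 4 arrays gave -4.83 to -3.27. GPR111 (ADGRF2) did not pass the filter on dim probes, and ADGRF5 was not analysed here. No adhesion receptor other than GPR110 was called on day 7 or day 12, where 0.386% and 0.49% (day 7) and 0.0149% (each dose on day 12) of all genes were called. GPR128 was still 3.69-fold and 3.76-fold above control on day 7 (limma adjusted p = 0.12 and 0.108).

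Among genes named for ankyrin repeats, 4 of the 34 tested were called in at least 1 group (11.8%), near the 9.15% of all genes. ANKRD22 rose 4.08-fold and 3.71-fold on day 4 (limma adjusted p = 0.0328 and 0.0274) and ANKRD29 2.34-fold after 7.4 Gy. ANKRD53 fell by 1.17 in log2 on day 4 after 7.4 Gy and ANKRD44 by 1.35 on day 7 after 6.7 Gy. Their median difference was -0.14 and -0.052 on day 4. The count was 1 without control replicate 1 and with slide as a block. On days 4 and 7 none of these 4 genes reached the lower bounds given for ANKRD65, a gene chosen for its rise. Their order under the normexp offset is not given here.

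**Figure D5:**
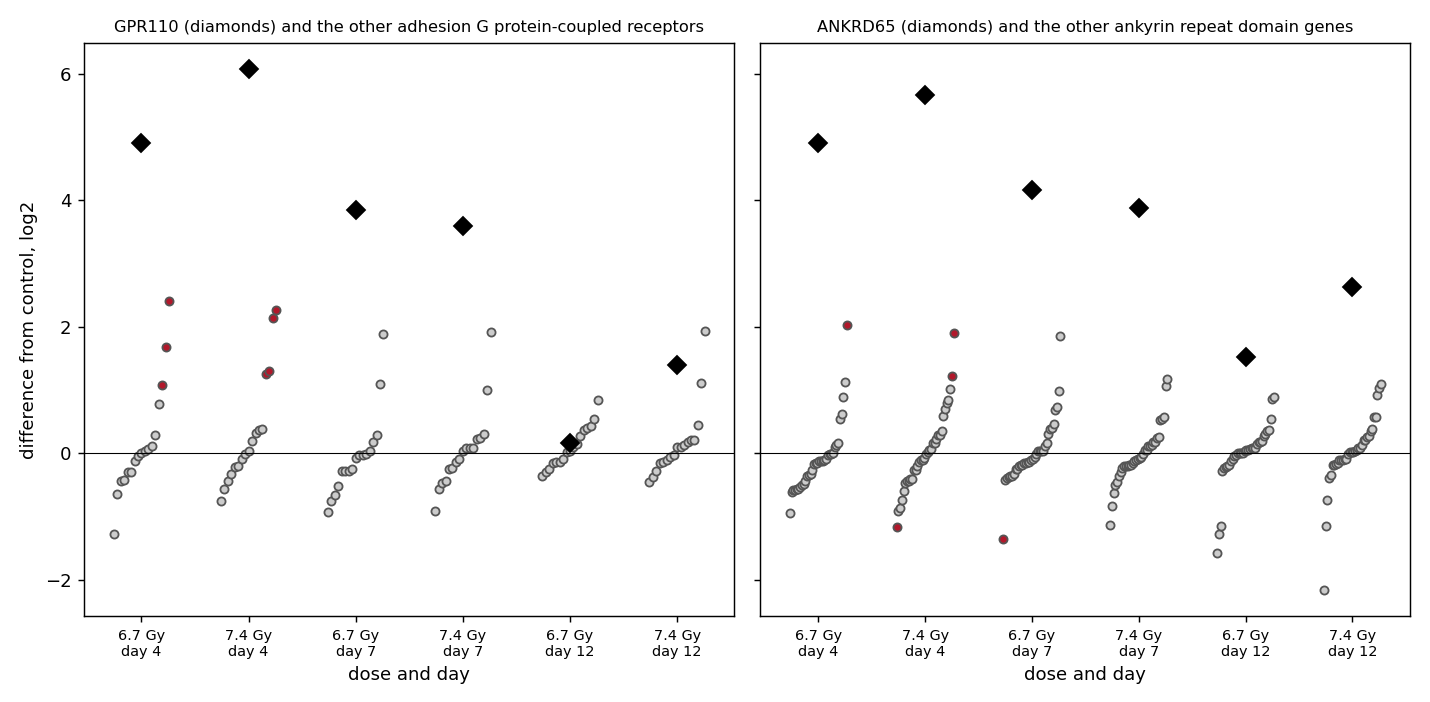
Difference from control in log2 for GPR110 with the 17 other adhesion G protein-coupled receptors tested (left) and for ANKRD65 with the 34 other ankyrin repeat domain genes tested (right), by dose and day. Diamonds are GPR110 and ANKRD65, circles the other genes, red where called at an adjusted p under 0.05 and at least 2-fold. On days 4 and 7 both diamonds lie above all circles, but both genes were chosen for their rise in these contrasts. The ANKRD65 diamonds are differences of measured signals, with no control well above background. On day 12 after 6.7 Gy GPR110 is at 0.15.

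The signalling and ligand genes tied to GPR110 moved in part. Of 20 Gs and cyclic AMP genes 4 were called (20%, against 9.15% of all genes in any group), all on day 4. The phosphodiesterase PDE4B, which degrades cyclic AMP, rose 3.01-fold and 2.97-fold (limma adjusted p = 0.00256 and 0.000901). CREM, a cyclic AMP-responsive transcription factor, rose 2.22-fold after 6.7 Gy, and the adenylyl cyclase ADCY3 2.08-fold after 7.4 Gy, while the cyclase ADCY2 fell by 2.32 and 1.98 in log2. The median of this list was 0.043 and 0.056. The count was 2 without control replicate 1 and 1 with slide as a block. Of 4 N-acylethanolamine genes, NAAA, the acid amidase that degrades these lipids, fell by 1.21 and 1.18 on day 4 (limma adjusted p = 0.023 and 0.0144), a call lost when arrays were scaled to the spike-ins. Among all genes 1.98% and 3.98% were called lower on that day.

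The list of injured and regenerating epithelium had 4 of 15 genes called (26.7%, against 9.15% of all genes). ANXA3, an annexin, rose 5.83-fold and 14.5-fold on day 4 and 3.39-fold and 2.76-fold on day 7 (limma adjusted p = 0.0256 and 0.0499 on day 7). It was the only gene of the 6 pathway lists called higher on day 7, when 0.156% and 0.201% of all genes were called higher. The number of genes of this list called on day 7 was 1 in 13 of 15 alternative settings after 6.7 Gy but in 2 of 15 after 7.4 Gy, and otherwise 0. EREG, an EGF receptor ligand, rose 16.9-fold and 12.8-fold on day 4, with 1 of 4 controls above background, and ANXA1 3.72-fold after 7.4 Gy. KRT17, a keratin, fell by 2.14 in log2 after 7.4 Gy. The list's median was 0.48 and 0.67 on day 4.

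Of 16 YAP target genes 6 were called (37.5%, against 9.15% of all genes), 4 of them after 6.7 Gy and 6 after 7.4 Gy, all higher and all on day 4. CTGF and CYR61, matricellular proteins, rose 4.54-fold and 3.27-fold and 3.89-fold and 3.60-fold. MYOF, a membrane repair protein, rose 2.37-fold and 2.84-fold and PTPN14, a tyrosine phosphatase, 2.09-fold and 2.78-fold. The median was 0.34 and 0.83 on day 4 and -0.098 and -0.0022 on day 7. With slide as a block the count was 3. On day 12 no gene of the 6 lists was called.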

How the data were processed

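Total RNA of whole colon from 24 macaques was labelled with Cy3 and hybridised to 1-colour Agilent rhesus arrays by the authors. The scanner files hold the processed intensity of each spot as deposited by the authors (Feature Extraction 11.0.1.1), background-subtracted and not normalised between arrays. The authors also deposited a raw table of intensity values, equal to the scanner values within 0.001, and a table of normalised log2 values, centred per probe, which served as an alternative. Every sample's group was taken from its labels.

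Here, log2 intensity minus the array's 75th percentile was used. Outlier spots were set to missing, spots of a probe averaged, and probes kept if well above background on at least 2 arrays (38220 of 43603). Groups were compared with limma 3.58.1 in R 4.3.3, with 1 mean per group and Benjamini-Hochberg adjustment over all probes. A gene was called at an adjusted p under 0.05 and at least 2-fold, and was represented by its brightest probe. The fit was tested on simulated data. Where no array of the dimmer group was above background, a fold is a lower bound against the lowest spot well above background on each array. Such a bound holds only for the deposited background-subtracted signals. Of the probes, 18640 were named by the array, 3184 through a LOC number and 84 through an accession in RefSeq (assembly T2T-MMU8v2.0), 1887 carried only a LOC number and 19808 no name.

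Genes named in the text are both members, the 10 genes nearest to each by Pearson correlation, up to 4 called genes of each pathway list by largest change, and the subfamily of GPR110 (1 result of which is not reported here) with marker genes where a marker list is described. The members and lists were chosen with earlier results of these data known. Alternatives covered scaling, background correction, filters, tests, slide, position, scan day and leaving out each array. All columns of the series tables were mapped to a sample, and no sequences were printed.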

Additional observations from a re-analysis of the deposited data

Results flagged for a closer look

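A single value stood apart from the rest of its group. On day 4 after 7.4 Gy the lowest of the 4 GPR110 arrays, replicate 2 at -0.48, was farther from the other 3 arrays (0.64 to 0.81) than Dixon's 95% limit for 4 values allows, with a gap of 0.868 of the group's range against a limit of 0.829. Chance alone marks about 1 in 20 groups, and 10 groups were examined. The array is also the highest of its group for ANKRD65, at -0.41, and for the colonocyte markers, at 1.64. Without it the group's difference from control was 6.37.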

How the results depend on the processing

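The differences of GPR110 and ANKRD65 from control kept their direction on days 4 and 7 under every alternative that could be fitted, but their size depended on the background correction. With normexp and an offset of 50, GPR110 stood 2.82 and 3.84 (log2) above control at day 4, and 1.85 at either dose at day 7. ANKRD65 stood 1.51 and 2.01 above it (day 4), 1.04 and 0.94 (day 7), and 0.13 and 1.06 (day 12). The fall of ANKRD65 from day 4 to day 7 was then -0.77 (limma adjusted p = 0.00956), under 2-fold, 1 ankyrin repeat gene was called, and 5 of the 10 neighbours of GPR110 and 4 of ANKRD65 were kept. With array position as a block, GPR110 on day 4 after 7.4 Gy was 4.65 above control; days 7 and 12 could not be fitted, nor could the counts over all groups. With position and scan day as blocks the day 7 dose difference of GPR110 turned to 0.22, and when single arrays were left out it ranged from -0.97 to 0.53. The methods' t-test and the slide block each left 1 ankyrin repeat gene called, against 1 to 5 when single arrays were left out. Slide as a block left 1 Gs and cyclic AMP gene called, against 2 to 6 when single arrays were left out. YAP targets numbered 3 with slide as a block, and N-acylethanolamine genes 0 with spike-in scaling. Spearman correlation kept 5 and 6 of the nearest genes, deviations from group means 2 and 0, and leaving out the controls 1 of ANKRD65. The cause of these shifts was not tested. Replicate numbers did not pair the samples (correlations of -0.228 to 0.236), and with the replicate number as a block the change from day 4 to day 7 was -1.77 for GPR110 (limma adjusted p = 0.0172) and -1.27 for ANKRD65 (limma adjusted p = 0.00222). The precision of both genes in controls is limited by signal near background.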
